A study of Mus musculus with 6 samples.

Results

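The genes described here encode the proteins of the cytosolic ribosome. They were taken by name, as the genes whose symbol is Rpl or Rps followed by a number, with at most 1 of the endings a, x, l or l1, together with Rplp0, Rplp1, Rplp2 and Rpsa. This rule found 84 genes among the 46072 genes of the separate table of each library, 51 of the large subunit and 33 of the small subunit, and 82 of them were also named in the 44137 named entries of the matrix of the whole series. Rps4l and Rps12l1 are annotated as pseudogenes and the other 82 as protein-coding genes.

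A cytosolic ribosome joins a small subunit, which reads the mRNA, to a large subunit, which forms the peptide bonds, and each subunit is ribosomal RNA held by a set of proteins made in nearly equal amounts. The mRNAs of these proteins are short, abundant and present in every cell, and many start with a run of pyrimidines, the 5′ terminal oligopyrimidine (TOP) tract, through which their translation is regulated. Introns of ribosomal protein genes often hold small nucleolar RNAs (snoRNAs), which are released from the spliced intron and guide the modification of ribosomal RNA.

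RIP-seq, the sequencing of RNAs precipitated by an antibody to a protein, was used on RNAs that came down with the histone methyltransferase EZH2 from left ventricles of male mice aged 10 weeks. There were 2 mice in each of 3 groups, namely Sham, AngII 4 h and AngII 24 h, with angiotensin II given by osmotic minipump at 1 mg/kg/min, as the labels state the dose, and saline given to Sham mice, which the labels call untreated. Cleared whole-ventricle lysate was incubated with normal IgG or with anti-EZH2, and each of the 6 libraries was made from 2 mixed products, so that each group had 1 library per antibody and no replicate. The labels give the strain as C57BL/6, except for C57BL/7 in the AngII 4 h anti-EZH2 library and C57BL/8 in the AngII 24 h anti-EZH2 library. Mice of 1 group were pooled and the antibody libraries of a group came from the same ventricles, so that the treatment cannot be told apart from the mice.

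Values are FPKM, which divide the fragments of a gene by its length and by the depth of the library. From the steps between low values, the libraries were estimated to hold between 3818032 fragments (AngII 24 h IgG) and 7987366 fragments (AngII 4 h anti-EZH2), and between 62.6% and 67.6% of the low values were whole numbers of reads to within 0.1 reads. The AngII 24 h anti-EZH2 library stood apart, since mitochondrially encoded genes held 31.3% of its FPKM against 6.72% to 13.9% in the other 5, and its FPKM summed to 1066360 against 1713600 to 2166090. Small nuclear RNAs held between 35.8% and 55.9% of the FPKM, and in the AngII 4 h anti-EZH2 library the mitochondrial ribosomal RNAs were listed at 0. The 7 cardiomyocyte markers summed to between 4842 and 8511 FPKM. The 3 atrial markers summed to 23.8 and 18.8 FPKM in the Sham libraries and to 1.05 FPKM or less in the AngII libraries, and the part of this difference in the results was not tested.

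The snoRNAs inside the members are shown first, because the matrix values of some members that hold one stood far above the separate tables, as described below. GENCODE M21 places 56 snoRNAs inside 29 of the 84 genes, on the same strand, and for 23 of them, in 17 genes, the matrix lists no separate entry. The first 6 sequences below have no such entry and lie in the hosts Rpl5, Rps3, Rpl13a, Rpl7a, Rps20 and Rpl10, and the last 3 have an entry and lie in Rps3, Rps12 and Rpl32. Capitals mark an exact C box (TGATGA) near the 5′ end and an exact D box (CTGA) near the 3′ end of a box C/D snoRNA, which guides methylation, or the ACA box near the 3′ end of an H/ACA snoRNA, which guides pseudouridylation, and all coordinates are GRCm38.
Snord21 in Rpl5, chr5:107904555-107904648, plus strand: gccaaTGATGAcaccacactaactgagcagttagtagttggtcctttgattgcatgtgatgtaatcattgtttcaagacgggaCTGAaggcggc
Snord15b in Rps3, chr7:99479563-99479707, minus strand: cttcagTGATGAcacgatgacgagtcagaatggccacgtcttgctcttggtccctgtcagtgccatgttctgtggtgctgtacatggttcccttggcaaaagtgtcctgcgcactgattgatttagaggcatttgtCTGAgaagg
Snord32a in Rpl13a, chr7:45127382-45127464, minus strand: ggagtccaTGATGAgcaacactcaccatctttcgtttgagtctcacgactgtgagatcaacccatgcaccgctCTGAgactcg
Gm24134 in Rpl7a, chr2:26912530-26912600, plus strand: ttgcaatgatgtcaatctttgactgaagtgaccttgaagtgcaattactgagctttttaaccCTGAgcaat
Gm24016 in Rps20, chr4:3835079-3835146, minus strand: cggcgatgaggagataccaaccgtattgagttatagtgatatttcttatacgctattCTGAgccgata
Snora70 in Rpl10, chrX:74272484-74272620, plus strand: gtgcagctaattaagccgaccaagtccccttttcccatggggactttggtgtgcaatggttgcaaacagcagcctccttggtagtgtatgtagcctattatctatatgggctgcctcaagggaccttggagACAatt
Snord15a in Rps3, chr7:99482785-99482932, minus strand: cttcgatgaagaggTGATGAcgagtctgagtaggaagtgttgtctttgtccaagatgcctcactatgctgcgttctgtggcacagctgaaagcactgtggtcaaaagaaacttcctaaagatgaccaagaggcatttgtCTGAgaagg
Snora33 in Rps12, chr10:23785347-23785475, minus strand: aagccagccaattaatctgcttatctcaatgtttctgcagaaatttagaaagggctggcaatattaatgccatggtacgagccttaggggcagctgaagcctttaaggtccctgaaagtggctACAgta
Snora7a in Rpl32, chr6:115807975-115808114, minus strand: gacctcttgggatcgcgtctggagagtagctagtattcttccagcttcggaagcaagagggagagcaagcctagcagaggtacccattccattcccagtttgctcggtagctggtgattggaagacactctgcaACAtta
These snoRNAs are between 68 and 148 nt long, far shorter than the mRNAs of their hosts.

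The ribosomal protein genes were abundant and kept nearly the same order of levels in every library. Their median was 43.7, 41.8 and 41.0 FPKM in the Sham, AngII 4 h and AngII 24 h IgG libraries, and 31.1, 37.5 and 25.8 FPKM in the anti-EZH2 libraries of the same groups. The medians of the protein-coding genes tested were between 2.21 and 3.29 FPKM. Spearman's rho of the levels over 82 members was between 0.904 and 0.945 for the 15 pairs of libraries, given as a description since the libraries share gene lengths and mice. Of the 84 genes, 78 had a mean between 10 and 200 FPKM over the libraries and 82 passed the minimum mean of 1 FPKM used for comparisons, and the 2 that did not pass were Rpl10l and Rpl39l. Small subunit genes had a higher median than large subunit genes in each library, for example 46.6 against 39.9 FPKM in Sham IgG and 32.5 against 24.2 FPKM in AngII 24 h anti-EZH2.

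**Figure D1:**
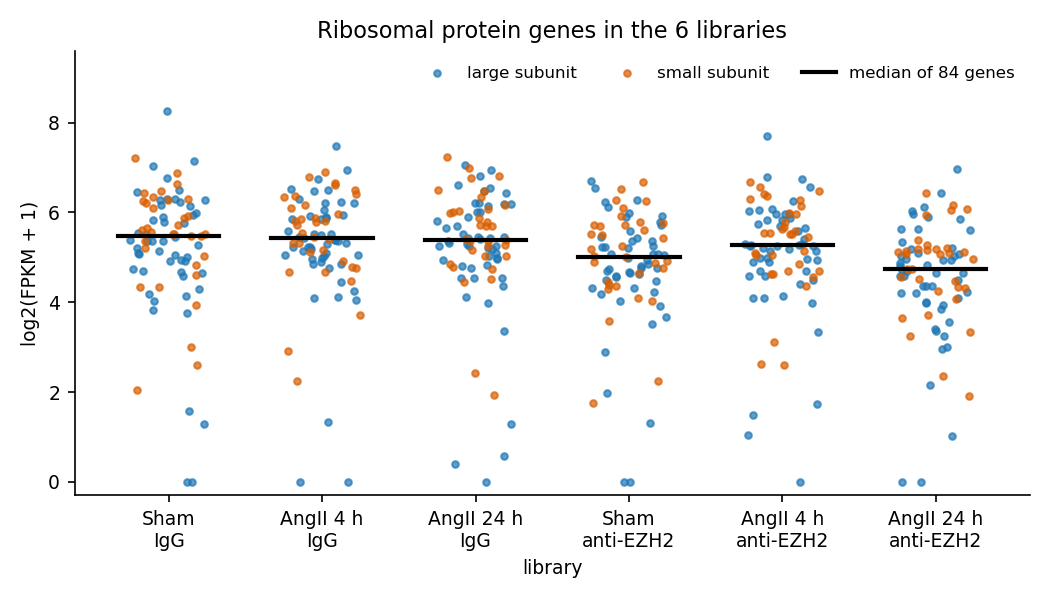
Levels of the 84 ribosomal protein genes in the 6 libraries, as log2(FPKM + 1) in the separate tables. Each point is a gene, coloured by subunit, and the line is the median of the library, which was lower in each anti-EZH2 library than in the IgG library of its group.

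The 5 genes with the highest means were Rpl13a, Rpl41, Rps29, Rps27 and Rpl28. Rpl13a, a large subunit protein also known for a role in silencing inflammatory mRNAs, was listed at 305, 177 and 122 FPKM in the Sham, AngII 4 h and AngII 24 h IgG libraries and at 103, 208 and 125 FPKM with anti-EZH2. Its Sham IgG value was the highest of any member and lay outside its own deposited interval, 64.0 to 107 FPKM, and over all members 421 of 504 values lay inside their interval and 83 outside. Rps29, a zinc-binding protein of the small subunit, was at 148, 119 and 126 FPKM with IgG and at 91.5, 88.7 and 70.7 FPKM with anti-EZH2, so that the antibodies did not overlap. Rpl41, the shortest ribosomal protein, was at 140, 122 and 132 FPKM with IgG and at 91.9, 110 and 64.6 FPKM with anti-EZH2, again without overlap. Rps27 was between 96.9 and 149 FPKM with IgG and between 85.9 and 102 FPKM with anti-EZH2, and Rpl28 between 77.5 and 129 and between 76.5 and 107 FPKM, and for both genes the antibodies overlapped. In the matrix the antibodies overlapped for Rps29, between 37.2 and 57.2 FPKM with IgG and between 33.6 and 43.7 FPKM with anti-EZH2. The same held for Rpl41, between 26.3 and 79.1 FPKM with IgG and between 28.5 and 70.5 FPKM with anti-EZH2. The share of all features without overlap is not given here.

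The stalk proteins, which recruit elongation factors to the large subunit, and Rpsa, the small subunit protein that also serves as a laminin receptor, were at ordinary levels for members. Rplp0, the base of the stalk, was at 62.5, 89.3 and 84.7 FPKM with IgG and at 40.3, 66.4 and 48.6 FPKM with anti-EZH2, lower with anti-EZH2 within each group. Rplp2 was between 97.1 and 108 FPKM with IgG and between 69.0 and 94.2 FPKM with anti-EZH2, without overlap. Rplp1 was between 57.1 and 70.6 FPKM with IgG and between 36.2 and 69.1 FPKM with anti-EZH2, and Rpsa between 14.3 and 24.4 FPKM and between 11.1 and 19.4 FPKM, both with overlap. In the matrix Rplp2 overlapped too, between 35.8 and 58.9 FPKM with IgG and between 32.0 and 74.0 FPKM with anti-EZH2.

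Of the named paralogues, Rpl10l, Rpl39l, Rpl7l1 and Rps4l were low in each library, whereas Rpl3l, and in single libraries Rps27l and Rpl22l1, reached 30.6, 31.4 and 36.7 FPKM. Rpl10l, a retrogene known from the testis, was listed at 0 in 5 libraries and at 0.319 FPKM in AngII 24 h IgG, and Rpl39l was listed at 0 in 5 libraries and at 1.80 FPKM in AngII 4 h anti-EZH2. Rpl7l1 was between 1.03 and 1.97 FPKM, and Rps4l between 2.37 and 6.55 FPKM. Rpl3l is the paralogue of Rpl3 restricted to heart and skeletal muscle, and the proteins occupy the same place in the large subunit. Rpl3l was at 16.5, 27.7 and 27.5 FPKM with IgG and at 17.7, 30.6 and 16.2 FPKM with anti-EZH2, while Rpl3 was at 18.7, 16.1 and 9.32 FPKM with IgG and at 6.38, 9.18 and 6.76 FPKM with anti-EZH2. The Rpl3l/Rpl3 quotient of FPKM was 0.885 in Sham, 1.72 in AngII 4 h and 2.95 in AngII 24 h with IgG, while with anti-EZH2 it was 2.78, 3.34 and 2.40. In the matrix the same quotient was 0.919, 1.47 and 5.05 with IgG and 2.53, 2.77 and 3.48 with anti-EZH2. Sham IgG was thus the library in which Rpl3 exceeded Rpl3l in both forms of table, and with 1 library per combination this order has no replicate check. Processed pseudogenes of the members can share reads with them, and 258 such genes summed to between 11.6% and 13.3% of the members' FPKM.

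The comparison of antibodies asks which RNAs came down with EZH2 beyond the IgG background. As a group, the ribosomal protein mRNAs were slightly lower with anti-EZH2 than with IgG in the deposited FPKM. The median log2 anti-EZH2/IgG ratio of the 82 members, on the log2(FPKM + 1) scale used throughout, was -0.42 in Sham, -0.17 in AngII 4 h and -0.74 in AngII 24 h, beside -0.16, -0.06 and -0.44 for the 8637 features tested and -0.23, -0.10 and -0.44 for the 6880 protein-coding genes among them. Members with a ratio below 0 numbered 71, 62 and 76 of 82, and 51 of 82 (62.2%) were below 0 in all 3 groups, as were 28.3% of all features tested. Without AngII 24 h, whose anti-EZH2 library stood apart, 54 of 82 members (65.9%) were below 0 in both other groups, beside 35.3% of all features. In the separate tables no member was above 0 in all 3 groups. The large and small subunits had close medians, -0.46 and -0.36 in Sham, -0.15 and -0.22 in AngII 4 h, and -0.70 and -0.79 in AngII 24 h. Members with a snoRNA inside had medians of -0.35, -0.13 and -0.72, and those without had medians of -0.45, -0.21 and -0.76. In the matrix the medians of the members were -0.083, 0.070 and -0.10, all near 0.

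The direction in AngII 24 h depended on the scaling. When each library was rescaled to an equal sum without mitochondrially encoded genes, the medians of the members were -0.28, -0.06 and 0.52, beside -0.04, 0.00071 and 0.54 for all features, and 4 of 82 members (4.88%, beside 6.24% of all features) were then below 0 in all 3 groups. Relative to the median protein-coding gene the members' medians were -0.19, -0.07 and -0.30, below 0 in each group. Small nuclear RNAs, a large part of that sum, totalled 382160 FPKM in the AngII 24 h anti-EZH2 library and between 810145 and 1145810 FPKM in the others. As a share of the FPKM of protein-coding genes, the members held 4.25%, 3.23% and 3.45% with IgG and 3.35%, 3.07% and 2.91% with anti-EZH2, and as a share of all FPKM they held 0.199%, 0.208% and 0.197% with IgG and 0.155%, 0.217% and 0.236% with anti-EZH2.

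**Figure D2:**
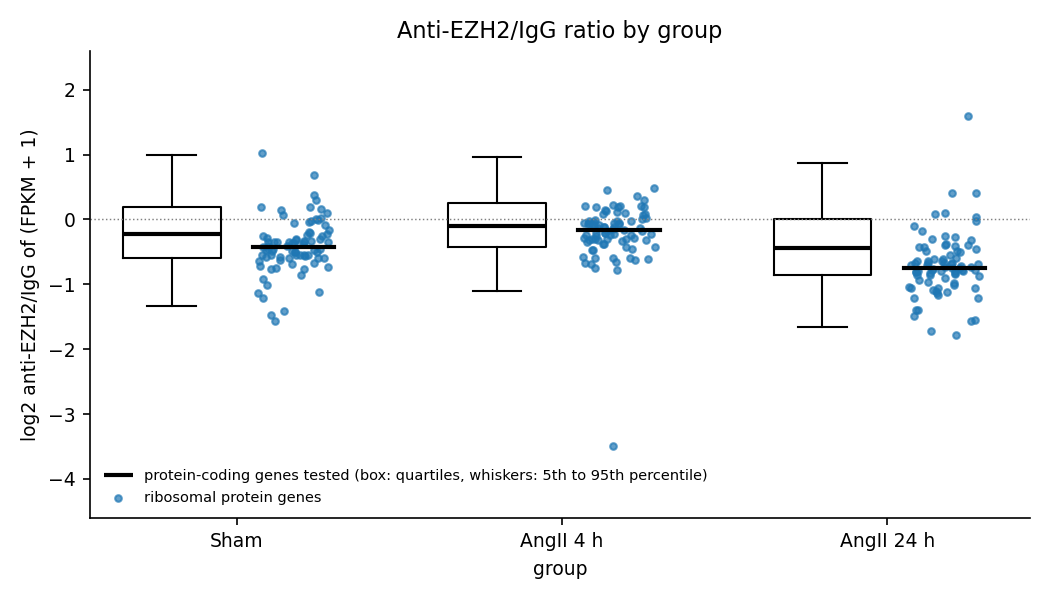
Log2 anti-EZH2/IgG ratio of (FPKM + 1) in each group, for all protein-coding genes tested (box: quartiles, line: median, whiskers: 5th to 95th percentile) and for the 82 ribosomal protein genes tested (points, with their median). The members lie close together, with medians of -0.42, -0.17 and -0.74, and the point near -3.50 in AngII 4 h is Rpl22l1.

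Few members passed a 2-fold difference. In Sham, 1 member was more than 2-fold higher with anti-EZH2 (Rps27l, 1.22% of the members tested beside 9.36% of all features) and 7 were more than 2-fold lower (Rpl13a, Rpl18, Rpl27, Rpl3, Rpl36, Rpl37 and Rps13, 8.54% beside 10.6%). In AngII 4 h, 0 members were higher (beside 8.2% of all features) and 1 was lower (Rpl22l1, 1.22% beside 6.51%). In AngII 24 h, 1 was higher (Rpl22l1, 1.22% beside 5.46%) and 19 were lower (23.2% beside 22%), a share near the background. The members thus lay around a common small shift with few large differences, and each of these shares was below or near that of all features. The members also stood at higher levels, with library medians between 25.8 and 43.7 FPKM against 2.21 to 3.29 FPKM for the protein-coding genes tested. Neither these shares nor those below 0 were set against features of similar level.

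A limma fit over the 6 libraries, with the group as a block, called 0 of 82 members at an adjusted p under 0.05 in either direction, beside 0.0232% of all features higher (2 features) and 0% lower. At an unadjusted p under 0.05, 3 members were lower (3.66%, beside 4.48% of all features) and 0 higher, and the smallest adjusted p of a member was 0.664. The median of the members' fitted log2 differences was -0.43 with a median standard error of 0.30, and without the AngII 24 h pair it was -0.30 with 0 members called, where the 3 groups served as the only repeats of the antibody difference although they also differ in treatment. On simulated data of this comparison, 40 of 100 genes changed by 2-fold and 100 of 100 changed by 4-fold were called among 8637 genes, together with 10 genes that had not been changed. Every simulated gene had the same spread, whereas in the data the spread differed between genes. The simulation therefore cannot say how many real differences of these sizes the fit would call.

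The 3 members with the lowest mean ratio were Rpl27, Rpl36 and Rpl3. Rpl36 was at 86.5, 91.5 and 88.1 FPKM with IgG and at 42.6, 61.1 and 32.8 FPKM with anti-EZH2, without overlap, and limma gave a log2 difference of -0.99 ± 0.31 (SE; 3 against 3 libraries; adjusted p = 0.664). Each of these Rpl36 values lay above its own deposited interval, for example 35.4 to 62.3 FPKM in Sham IgG. In the matrix the antibodies overlapped for Rpl36, at 17.3, 19.0 and 54.6 FPKM with IgG and 14.3, 14.3 and 30.7 FPKM with anti-EZH2. Rpl3, whose levels are given above, was likewise lower in each group in the separate tables, with log2 ratios of -1.42, -0.75 and -0.41. Rpl27 was at 41.1, 32.0 and 32.9 FPKM with IgG and at 14.2, 37.1 and 9.30 FPKM with anti-EZH2, so that the antibodies overlapped through AngII 4 h. The 3 members with the highest mean ratio were Rpl29, Rpl6 and Rpl35, and in the separate tables their ratios were all near 0. Rpl29, a heparin-binding protein of the large subunit, had log2 ratios of 0.30, 0.12 and -0.03, Rpl6 had 0.19, -0.21 and 0.09, and Rpl35 had -0.16, -0.03 and 0.08. In the matrix Rpl29 had 1.21, 0.47 and 1.09, Rpl6 had 0.61, -0.38 and -0.22, and Rpl35 had 0.21, 0.22 and 1.03.

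Rps27l and Rpl22l1 differed most between the groups. Rps27l, a p53-responsive paralogue of Rps27, was at 7.01, 12.2 and 31.4 FPKM with IgG and at 15.4, 7.60 and 8.46 FPKM with anti-EZH2, or about 9, 19, 35, 26, 18 and 12 reads. Its log2 anti-EZH2/IgG ratio was 1.03 in Sham, -0.62 in AngII 4 h and -1.78 in AngII 24 h. Rpl22l1, the paralogue of Rpl22 that takes its place when Rpl22 is lost, was at 36.7 FPKM in AngII 4 h IgG and between 0.484 and 3.48 FPKM in the other 5 libraries. The high value lay outside its deposited interval of 3.0 to 19.7 FPKM, and the matrix listed 16.6 FPKM in that library and between 0 and 5.15 FPKM in the others. Both genes rest on few reads in most libraries. With the added condition that the deposited intervals lie apart, neither was past 2-fold higher with anti-EZH2 in any group, nor Rpl22l1 past 2-fold lower in AngII 4 h. The intervals of Rps27l in AngII 24 h overlapped too, at 9.48 to 53.3 FPKM with IgG and 2.11 to 18.6 FPKM with anti-EZH2.

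**Figure D3:**
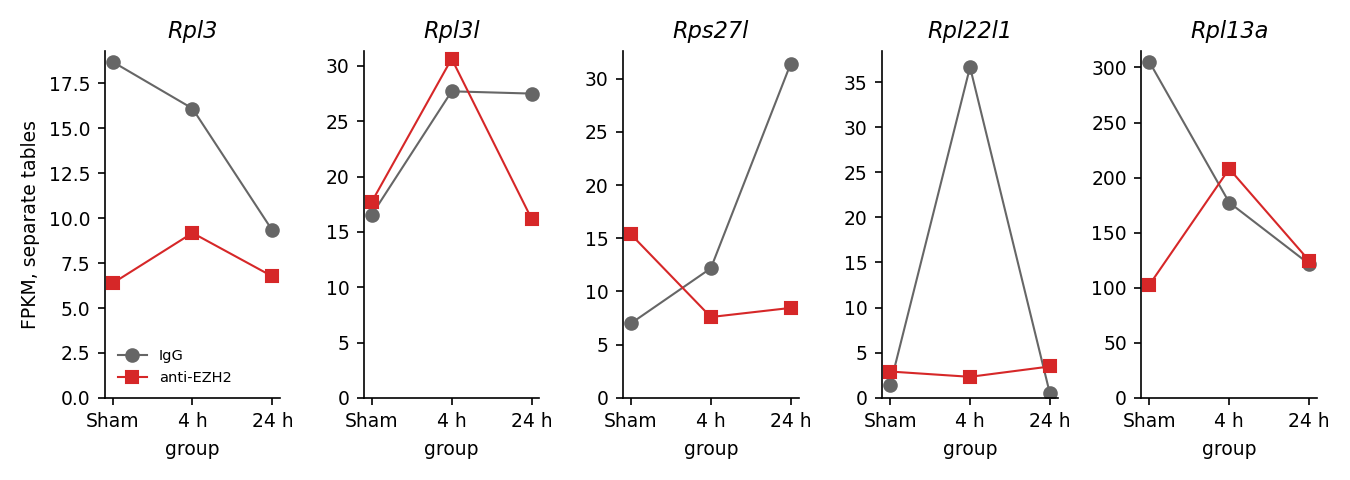
FPKM of Rpl3, Rpl3l, Rps27l, Rpl22l1 and Rpl13a in the separate tables, by group (Sham, AngII 4 h, AngII 24 h) and antibody, with 1 library per point and a separate vertical axis for each gene. Rpl22l1 is high in 1 library, AngII 4 h IgG, at 36.7 FPKM, and Rpl3 is lower with anti-EZH2 in each group.

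The comparison of groups asks how the RNA precipitated with normal IgG, a background and not an input, and the RNA precipitated with anti-EZH2 differed after AngII. In the IgG libraries the members' median was nearly the same in the 3 groups. The median log2 difference was 0.02 between AngII 4 h and Sham, 0.01 between AngII 24 h and Sham and 0.01 between AngII 24 h and AngII 4 h, beside 0.14, 0.16 and 0.01 for all features. In these bulk samples fewer cells of a type and less RNA per cell cannot be told apart. Between AngII 4 h and Sham, 2 members were more than 2-fold higher (Rpl15 and Rpl22l1, beside 11.2% of all features) and 0 lower (beside 7.49%). Between AngII 24 h and Sham, 1 was higher (Rps27l, beside 13.2%) and 2 were lower (Rpl13a and Rpl38, beside 6.33%), and between AngII 24 h and AngII 4 h, 1 was higher (Rps27l, beside 9.1%) and 1 lower (Rpl22l1, beside 7.13%).

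By the rule for naming, the 3 highest and 3 lowest members of each difference from Sham IgG hold a few further genes. Rpl15 was at 12.5, 26.2 and 16.3 FPKM with IgG and at 11.7, 16.1 and 9.63 FPKM with anti-EZH2. Rpl18 was at 77.0, 40.7 and 73.2 FPKM with IgG and at 32.6, 57.5 and 61.5 FPKM with anti-EZH2, with AngII 4 h the low IgG value. Rpl38, known for a part in the translation of Hox mRNAs, was at 89.7, 74.0 and 42.5 FPKM with IgG, lower at each later time, and at 47.2, 52.8 and 56.4 FPKM with anti-EZH2. Rps6, the target of the S6 kinases, was at 23.2, 29.2 and 37.3 FPKM with IgG and at 19.8, 24.9 and 21.1 FPKM with anti-EZH2, so that the IgG order was Sham, AngII 4 h, AngII 24 h for both genes in opposite directions. In the matrix Rps6 kept this order with IgG, at 6.08, 6.54 and 15.6 FPKM. Rpl38 did not, at 24.8, 13.5 and 17.9 FPKM. Each of these values is 1 library.

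In the anti-EZH2 libraries the group medians moved more. The median log2 difference was 0.26 between AngII 4 h and Sham, -0.31 between AngII 24 h and Sham and -0.54 between AngII 24 h and AngII 4 h, beside 0.25, -0.06 and -0.36 for all features. Rpl13a, Rpl27 and Rps2 were more than 2-fold higher between AngII 4 h and Sham (3 members, beside 12.2%) and 0 lower (beside 6.9%). Between AngII 24 h and Sham, 0 were higher (beside 7.24%) and 1 was lower (Rpl10a, beside 14.6%), and between AngII 24 h and AngII 4 h, 0 were higher (beside 4.63%) and 8 lower (among them Rpl10a, Rpl23a, Rpl27, Rps16, Rps2, Rps25 and Rps7, beside 18%). Rescaled without mitochondrially encoded genes, the last 2 medians were 0.86 and 0.54, beside 0.82 and 0.48 for all features, and relative to the median protein-coding gene the first was -0.03, so that the sign in the anti-EZH2 libraries was not the same under each scaling. These comparisons share libraries with each other and with the antibody comparison. In the matrix the same median was 0.79 between AngII 24 h and Sham IgG, beside 0.44 for all features, and 0.59 between AngII 24 h and Sham anti-EZH2, beside 0.46, so that the near-equal IgG medians were seen in the separate tables and not in the matrix.

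The matrix of the whole series gave another picture of the same libraries. In the matrix the members held between 0.690% and 2.44% of all FPKM, and the 5 highest members of every library all carried a snoRNA without an entry of its own. Rpl5, which carries 5S ribosomal RNA, was between 29.9 and 35.1 FPKM with IgG and between 21.7 and 28.6 FPKM with anti-EZH2 in the separate tables. In the matrix its entry was 1057, 1233 and 4440 FPKM with IgG and 3182, 1082 and 1744 FPKM with anti-EZH2, and Snord21, the snoRNA without an entry, had its own FPKM of 875, 1316, 2346, 2254, 880 and 611 in the same order of libraries in the separate tables. Rps20 was the clearest single case. It was between 18.9 and 43.6 FPKM in the separate tables, and its matrix entry was between 5.82 and 25.2 FPKM in 5 libraries and 2072 FPKM in Sham anti-EZH2, the library in which Gm24016 was at 1678 FPKM (about 5 reads, 4.80 by the estimate) and not at 0.

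The pattern was seen over the hosts together, but not in each host. More than 2-fold higher in the matrix than in the separate table were between 7 and 11 of the 16 tested hosts whose snoRNA had no entry of its own, 0 of the 12 hosts whose snoRNAs all had one and 0 of the 52 members without a snoRNA, in each library. Where the snoRNAs without an entry reached more than 100 FPKM, 46 of 54 values were more than 2 times the host's own FPKM, and 43 lay within 2-fold of the sum of host and snoRNA, with a median of 0.867 of the sum. Where they were at 0, 0 of 28 values were more than 2 times the host's own. Rpl6 was an exception in every library. Its snoRNA without an entry, Gm26205, was between 66.0 and 539 FPKM, and its matrix entry was between 9.79 and 30.1 FPKM. Rpl10 was another in AngII 24 h anti-EZH2, with its snoRNA at 109 FPKM and its matrix entry at 15.5 FPKM. Hosts whose snoRNA had an entry behaved like the other members, and Rps12 (with Snora33) had a matrix entry of 24.4 FPKM beside 80.5 FPKM in the separate table in Sham IgG, and Rpl32 (with Snora7a) 28.0 beside 69.7 FPKM. Rpl7a, Rps3 and Rpl10 reached 3669, 954 and 727 FPKM in the matrix at their highest, against 42.7, 25.8 and 37.2 FPKM at their highest in the separate tables. In a matrix entry of such a host the mRNA and the snoRNA cannot be told apart, and whether snoRNA reads were counted in it was not tested.

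**Figure D4:**
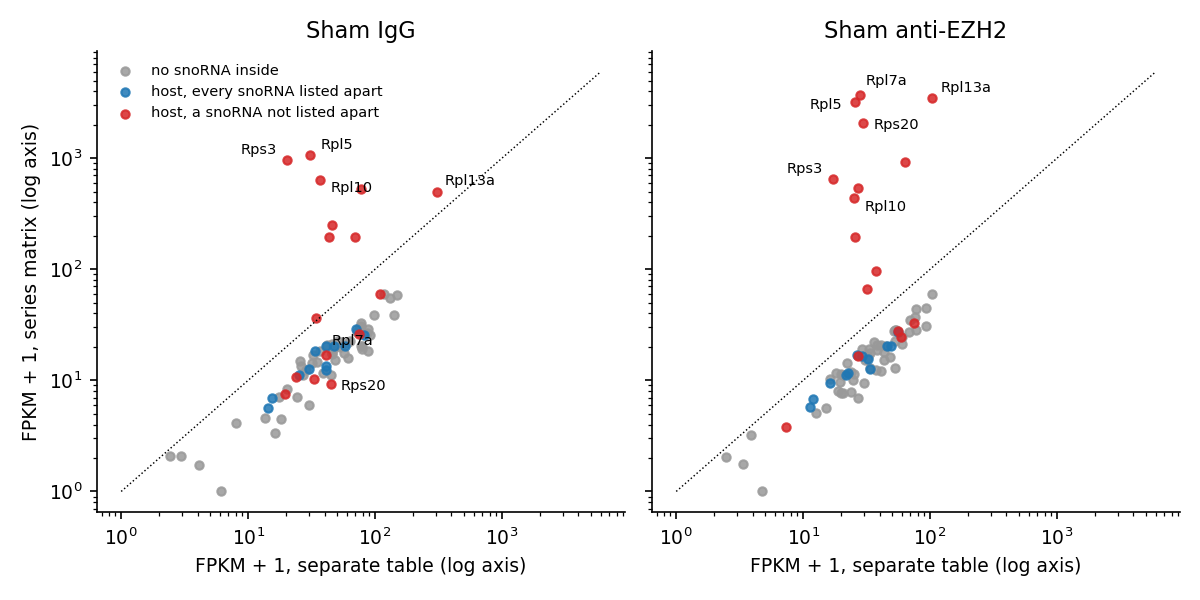
FPKM + 1 of the ribosomal protein genes in the matrix of the series against the separate table of the same library, Sham IgG (left) and Sham anti-EZH2 (right), on log axes, with the line of equal values dotted. Some genes whose snoRNA has no matrix entry of its own lie up to 2 orders above the others, and Rps20 and Rpl7a do so in Sham anti-EZH2 and not in Sham IgG.

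Which members a screen of enrichment picked differed between the tables. The study screened non-coding RNAs, whereas the screen here covers the members and all other features. The study's criteria, applied here as an FPKM above 1 with anti-EZH2, an anti-EZH2/IgG ratio above 2 and an FPKM above 0 in all libraries, picked 9 of 77 members in Sham from the matrix (7 of them hosts, beside 19.2% of all features), 7 of 76 in AngII 4 h (7 hosts, beside 16%) and 4 of 77 in AngII 24 h (0 hosts, beside 24.3%). From the separate tables the same criteria picked 2 of 82 members in Sham (Rpl22l1 and Rps27l, beside 16.1%), 0 of 82 in AngII 4 h (beside 13%) and 1 of 82 in AngII 24 h (Rpl22l1, beside 10.9%), 0 of them hosts. Rps27l in Sham was picked from both. Rpl13a turned its direction in Sham, with a log2 ratio of -1.56 in the separate tables and 2.81 in the matrix.

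The snoRNA values themselves rest on few reads. Of 336 snoRNA values inside members, 171 were listed at 0, and of the 165 above 0, 112 came to fewer than 10 reads and 77.0% were whole to within 0.1 reads. Snord32a in Rpl13a had about 2, 3 and 2 reads with IgG and 19, 13 and 8 with anti-EZH2, higher with anti-EZH2 in each group. Snora7a in Rpl32 had about 7, 15 and 18 reads with IgG and 40, 23 and 10 with anti-EZH2. Snora33 in Rps12 had 6, 1 and 2 reads with IgG and 10, 8 and 1 with anti-EZH2. The log2 anti-EZH2/IgG ratios of the hosts were -1.56, 0.23 and 0.036 for Rpl13a, -0.73, -0.30 and -0.60 for Rps12, and -0.35, -0.78 and -0.38 for Rpl32.

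Genes of the same pathway outside the naming rule also had medians below 0. Of 6 other ribosome genes tested, 5, 5 and 6 had a ratio below 0 in Sham, AngII 4 h and AngII 24 h, with medians of -0.28, -0.20 and -1.09, and 5 of them were more than 2-fold lower in AngII 24 h, beside 22% of all features. The 7 elongation factor genes tested had medians of -0.41, -0.02 and -0.59, the 42 initiation factor genes -0.26, -0.04 and -0.49, and 12 other TOP mRNAs -0.31, -0.06 and -0.43, beside -0.23, -0.10 and -0.44 for all protein-coding genes, so that the medians of the initiation factors and the other TOP mRNAs were closer to those of all protein-coding genes than to those of the members. The 77 mitochondrial ribosomal protein genes had medians of -0.28, -0.18 and -0.62, with 21 more than 2-fold lower in AngII 24 h (beside 22% of all features), and limma called 0 genes of any of these lists.

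The start of the member mRNAs was read from RefSeq promoters of GRCm38. A tract of a C at the annotated start followed by at least 4 bases that are C or T, on the gene's strand, was found at 13 of 74 promoters of members (17.6%), for 62 genes, and at 823 of 32851 promoters in all (2.51%). The windows of 30 bases below are shown for members described above, with the tract in capitals and the first capital at the annotated start. A start set some bases away would hide a tract in this search.
Rps27, chr3:90213634-90213663, minus strand: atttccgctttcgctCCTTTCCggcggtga
Rpl28, chr7:4792950-4792979, plus strand: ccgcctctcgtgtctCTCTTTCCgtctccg
Rpl38, chr11:114668565-114668594, plus strand: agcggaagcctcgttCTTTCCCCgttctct
Rps6, chr4:86857353-86857382, minus strand: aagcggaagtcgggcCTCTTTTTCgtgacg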

How the data were processed

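RIP-seq libraries of left ventricles, 1 for each of 3 groups and 2 antibodies, were compared. The authors prepared stranded libraries, aligned them by TopHat2 (genome mm10) and deposited FPKM as a separate table per library (with an interval per value) and as a matrix of the series. The FPKM program and its annotation are not given in the sources used here. Separately listed values below 0.001 (787 values) were set to 0, and 245 unnamed matrix rows were left out. Names and snoRNAs came from GENCODE M21 (45137 identifiers matched) and promoters from RefSeq (GRCm38.p6).

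Groups were taken from the labels. Differences were calculated on log2(FPKM + 1) for 8637 features with a mean FPKM of at least 1, and 1 library per group and antibody allows no test within a group. limma 3.58.1 (R 4.3.3, eBayes with trend, Benjamini-Hochberg over all features) compared 3 anti-EZH2 with 3 IgG libraries with the group as a block. Features were counted as past 2-fold or at an adjusted p under 0.05. Reads were estimated with fragments of mean 200 nt, SD 80 nt and at least 34 nt. On simulated data the depth of 6 of 6 libraries was recovered. Those data were built as whole numbers of reads with little noise, unlike the deposited values. The recovery therefore does not check the depths estimated from the deposited values. Calculations ran in Python 3.11.15 with scipy 1.17.1, matplotlib 3.10.9, pandas 2.3.3 and numpy 2.4.6.

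Named genes were the 5 highest by mean, the 3 highest and 3 lowest by mean antibody ratio and by each difference from Sham IgG, the 5 with the largest quotient between tables, paralogues, stalk genes, Rpsa, and hosts of snoRNAs in the study, and others past 2-fold were named after their values were seen. The members and lists were chosen with earlier results of these data known. Alternatives were other pseudocounts, minimums, scalings, folds and tables, and members without a snoRNA. A few genes of these lists are not reported here by name.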

Additional observations from a re-analysis of the deposited data

Results flagged for a closer look

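Rpl22l1 and Rps27l were picked out because their anti-EZH2/IgG ratios pointed in opposite directions in different groups. The log2 ratio of Rpl22l1 was 0.69 in Sham, -3.50 in AngII 4 h and 1.59 in AngII 24 h, and that of Rps27l was 1.03 in Sham, -0.62 in AngII 4 h and -1.78 in AngII 24 h. With 1 library per group and antibody the differences between groups were not tested.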

How the results depend on the processing

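Of 320 values of 47 results recomputed under the alternatives, 192 stayed within 1.5-fold (a count) or within the 95% interval of the median over members, 116 moved and 12 changed sign (counted for medians whose interval lay on 1 side of 0). For named genes 481 of 546 values stayed within 1.5-fold, and of the ratios past 2-fold 4 changed sign, which were Rpl10, Rpl41 and Rps3 in AngII 24 h (0.21, 0.28 and 0.13 when rescaled without mitochondrially encoded genes) and Rpl13a in Sham (2.81 in the matrix). Smaller ratios could change sign too, as those of Rpl7a (7.77 in Sham and 5.98 in AngII 4 h), Rpl5 (1.59 in Sham) and Rpl10 (2.12 in AngII 4 h) did in the matrix. The cause of each move was not tested.

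Counts in this paragraph are of members alone. The share of all features under each alternative is not given, so no count is read as particular to the members. All features moved too, in the matrix by medians of 0.44 to 0.54 from Sham or AngII 4 h to AngII 24 h. Rescaled, their median was 0.54 in AngII 24 h, 0.82 in AngII 24 h/Sham anti-EZH2 and 0.48 in AngII 24 h/AngII 4 h anti-EZH2. With a pseudocount of 0.1, members more than 2-fold lower were 2 in AngII 24 h/AngII 4 h IgG, 1 in AngII 4 h/Sham anti-EZH2 and 2 in AngII 24 h/Sham anti-EZH2. Without a minimum FPKM, a 2-fold higher level was counted for 1 in AngII 4 h. With a mean of at least 10 FPKM, higher by over 2-fold were 0 in AngII 24 h and 1 in AngII 4 h/Sham IgG. Lower by over 2-fold were 0 in AngII 4 h and 0 in AngII 24 h/AngII 4 h IgG. Relative to the median protein-coding gene, the median log2 difference was -0.19 in Sham, -0.067 in AngII 4 h, -0.30 in AngII 24 h, -0.15 in AngII 4 h/Sham IgG, -0.19 in AngII 24 h/Sham IgG, -0.029 in AngII 4 h/Sham anti-EZH2 and -0.22 in AngII 24 h/AngII 4 h anti-EZH2. Members more than 2-fold higher were 1 in AngII 4 h/Sham IgG. Members more than 2-fold lower were 3 in Sham, 5 in AngII 24 h, 1 in AngII 4 h/Sham IgG, 1 in AngII 4 h/Sham anti-EZH2 and 1 in AngII 24 h/AngII 4 h anti-EZH2. Rescaled without mitochondrially encoded genes, the median log2 difference was -0.28 in Sham, -0.060 in AngII 4 h, 0.52 in AngII 24 h, 0.16 in AngII 4 h/Sham IgG, -0.058 in AngII 24 h/AngII 4 h IgG, 0.36 in AngII 4 h/Sham anti-EZH2, 0.86 in AngII 24 h/Sham anti-EZH2 and 0.54 in AngII 24 h/AngII 4 h anti-EZH2. A 2-fold higher level was counted for 10 in AngII 24 h, 29 in AngII 24 h/Sham anti-EZH2 and 6 in AngII 24 h/AngII 4 h anti-EZH2. A 2-fold lower level was counted for 4 in Sham, 0 in AngII 24 h, 1 in AngII 24 h/Sham IgG, 2 in AngII 24 h/AngII 4 h IgG, 0 in AngII 24 h/Sham anti-EZH2 and 0 in AngII 24 h/AngII 4 h anti-EZH2. In the matrix, the median log2 difference was -0.083 in Sham, 0.070 in AngII 4 h, -0.10 in AngII 24 h, -0.32 in AngII 4 h/Sham IgG, 0.79 in AngII 24 h/Sham IgG, 1.12 in AngII 24 h/AngII 4 h IgG, -0.13 in AngII 4 h/Sham anti-EZH2, 0.59 in AngII 24 h/Sham anti-EZH2 and 0.81 in AngII 24 h/AngII 4 h anti-EZH2. Higher by over 2-fold were 9 in Sham, 7 in AngII 4 h, 5 in AngII 24 h, 1 in AngII 4 h/Sham IgG, 29 in AngII 24 h/Sham IgG, 43 in AngII 24 h/AngII 4 h IgG, 24 in AngII 24 h/Sham anti-EZH2 and 31 in AngII 24 h/AngII 4 h anti-EZH2. Lower by over 2-fold were 2 in Sham, 11 in AngII 24 h, 8 in AngII 4 h/Sham IgG, 8 in AngII 4 h/Sham anti-EZH2, 10 in AngII 24 h/Sham anti-EZH2 and 4 in AngII 24 h/AngII 4 h anti-EZH2. The members held 1.18% in Sham IgG, 0.69% in AngII 4 h IgG, 1.57% in AngII 24 h IgG, 2.44% in Sham anti-EZH2, 1.02% in AngII 4 h anti-EZH2 and 1.09% in AngII 24 h anti-EZH2. Over the members without a snoRNA, members more than 2-fold higher were 1 in AngII 4 h/Sham anti-EZH2. Members more than 2-fold lower were 3 in Sham, 1 in AngII 24 h/Sham IgG and 5 in AngII 24 h/AngII 4 h anti-EZH2. At 1.5-fold, a 1.5-fold higher level was counted for 2 in Sham, 8 in AngII 4 h/Sham IgG, 4 in AngII 24 h/Sham IgG, 4 in AngII 24 h/AngII 4 h IgG, 11 in AngII 4 h/Sham anti-EZH2 and 2 in AngII 24 h/Sham anti-EZH2. A 1.5-fold lower level was counted for 22 in Sham, 11 in AngII 4 h, 58 in AngII 24 h, 5 in AngII 4 h/Sham IgG, 5 in AngII 24 h/Sham IgG, 5 in AngII 24 h/AngII 4 h IgG, 2 in AngII 4 h/Sham anti-EZH2, 15 in AngII 24 h/Sham anti-EZH2 and 39 in AngII 24 h/AngII 4 h anti-EZH2. 3 members without a snoRNA were higher in the matrix in AngII 24 h anti-EZH2. At 2-fold with FPKM intervals apart, higher by over 2-fold were 0 in Sham, 0 in AngII 24 h, 0 in AngII 4 h/Sham IgG, 0 in AngII 24 h/Sham IgG and 0 in AngII 24 h/AngII 4 h IgG. Lower by over 2-fold were 0 in AngII 4 h, 1 in AngII 24 h/Sham IgG and 0 in AngII 24 h/AngII 4 h IgG. In the matrix over the members without a snoRNA (added after seeing the data), the median log2 difference was -0.11 in Sham, 0.089 in AngII 4 h, -0.083 in AngII 24 h, -0.33 in AngII 4 h/Sham IgG, 0.86 in AngII 24 h/Sham IgG, 1.18 in AngII 24 h/AngII 4 h IgG, -0.091 in AngII 4 h/Sham anti-EZH2, 0.72 in AngII 24 h/Sham anti-EZH2 and 1.00 in AngII 24 h/AngII 4 h anti-EZH2. Members more than 2-fold higher were 2 in Sham, 5 in AngII 24 h, 1 in AngII 4 h/Sham IgG, 21 in AngII 24 h/Sham IgG, 30 in AngII 24 h/AngII 4 h IgG, 1 in AngII 4 h/Sham anti-EZH2, 19 in AngII 24 h/Sham anti-EZH2 and 25 in AngII 24 h/AngII 4 h anti-EZH2. Members more than 2-fold lower were 1 in Sham, 5 in AngII 24 h, 3 in AngII 4 h/Sham IgG, 1 in AngII 24 h/Sham IgG, 1 in AngII 4 h/Sham anti-EZH2, 0 in AngII 24 h/Sham anti-EZH2 and 0 in AngII 24 h/AngII 4 h anti-EZH2. With a mean of at least 10 FPKM and no snoRNA (added after seeing the data), a 2-fold higher level was counted for 0 in AngII 24 h. A 2-fold lower level was counted for 3 in Sham and 0 in AngII 4 h. Of the protein-coding FPKM, the members held 4.25% in Sham IgG, 3.23% in AngII 4 h IgG, 3.45% in AngII 24 h IgG, 3.35% in Sham anti-EZH2, 3.07% in AngII 4 h anti-EZH2 and 2.91% in AngII 24 h anti-EZH2.

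limma called 0 members under each alternative, among them the fit with no replicate block (0 called, 7 lower at an unadjusted p under 0.05, against 3 with the group as a block) and the fits without 1 group's pair (0 called, 0 to 4 lower at an unadjusted p under 0.05, smallest adjusted p 0.662 to 0.846). The groups share only the replicate number 1, and the antibody libraries of a group pair by their shared ventricles. The median of the fitted log2 differences was 0.07 when rescaled without mitochondrially encoded genes, and between -0.57 and -0.30 without 1 group's pair. With 1 library per group and antibody no difference within a group has an error. Some members at low FPKM, such as Rpl22l1, rest on few reads in most libraries, and a snoRNA value can rest on 1 read.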
